A study of Mus musculus with 6 samples.

Results

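The 10 genes described here are *Dazl*, *Ddx4*, *Mael*, *Asz1*, *Stk31*, *Sycp1*, *Sycp3*, *Hormad1*, *Tex101* and *Slc25a31*, autosomal genes of the germ line that are known to be silenced by promoter methylation in somatic cells. They were chosen by name, and are 10 of the 21418 autosomal protein-coding genes of GENCODE M1, the annotation used for mm9. For each gene, ZFP57 and KAP1 peaks were collected over the gene body and 10 kb on either side (the window), and the promoter, 1 kb on either side of the annotated gene start, was kept apart from the rest. The windows add up to 618 kb, from 24.0 kb at *Tex101* to 138 kb at *Sycp1*. Peaks were called by the authors in JB1 and BJ1, hybrid mouse ESC lines grown without feeders in serum and LIF. JB1 came from the cross of JF1 females with B6 males and BJ1 from the reverse cross, so that both lines carry 1 B6 and 1 JF1 genome. Each line is a single male line, no gene was deleted and no agent was added. There is 1 library per line and antibody, and no difference between the lines can be set against replicate error. The lists give positions on a grid of 150 bp, with neither peak height nor read depth, and the inputs (2 libraries) were left aside. The data hold neither DNA methylation nor expression of the genes, so the silenced state that gives them their name was not checked here.

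KAP1 is a co-repressor that has no sequence specificity of its own and is brought to DNA by KRAB zinc-finger proteins, of which ZFP57 is one. It gathers the H3K9 methyltransferase SETDB1 and HP1, and ZFP57 brings it to methylated hexamers at imprinting control regions. Germline genes of this kind have CpG-rich promoters that are methylated around implantation, and in ESCs they are also known to be repressed by a Polycomb complex that contains E2F6, which recognises E2F sites, and MGA with MAX, which recognise the E-box CACGTG.

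Across the 4 lists, 20 peaks lay in the windows of the 10 genes, and only 2 of them, both at *Dazl*, touched a promoter. The KAP1 list of JB1 had 5 peaks at 4 genes, and that of BJ1 had 12 peaks at 6 genes. The ZFP57 list of JB1 had 2 peaks at 2 genes, and that of BJ1 had 1 peak. The lists differ in size: over the whole genome, KAP1 had 38713 peaks in JB1 and 72535 in BJ1, and ZFP57 had 10667 and 1318. Of all autosomal genes, 34.8% had a KAP1 peak in the window in JB1 and 65.2% in BJ1, whereas 12% had a ZFP57 peak in JB1 and 3.11% in BJ1. The counts of 4 and 6 of 10 genes for KAP1 are near these shares, and those for ZFP57 rest on 2 genes in JB1 and on a single gene in BJ1. *Sycp3* and *Slc25a31* had no peak of any list, as had 32.1% of all autosomal genes.

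**Figure D1:**
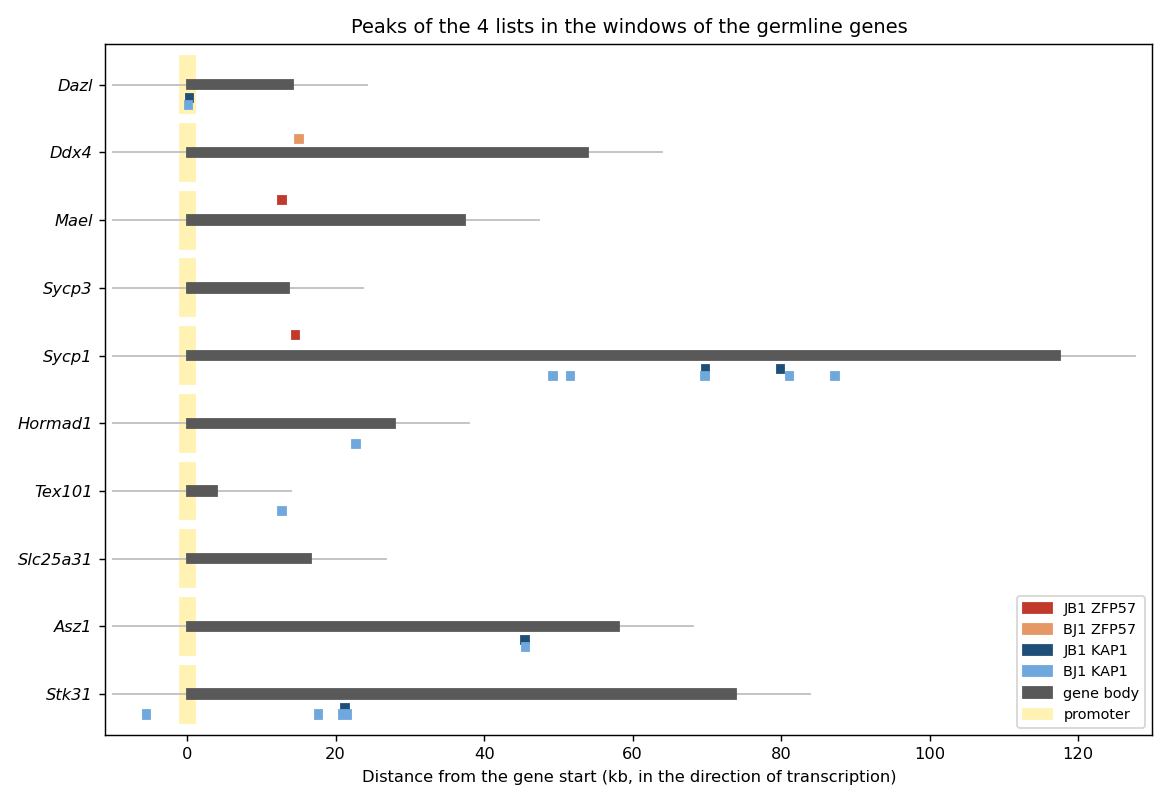
Peaks of each list along the windows of the 10 genes, by distance from the gene start in kb. Dark bars are gene bodies, thin lines the 10 kb flanks and yellow bands the promoters, and peaks narrower than 1 kb are drawn 1 kb wide so that they can be seen. The *Dazl* promoter is the only one with peaks, *Sycp1* holds most of the intronic KAP1 peaks, and *Sycp3* and *Slc25a31* are empty.

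*Dazl* encodes an RNA-binding protein needed for the translation of germ cell mRNAs. It lies on the minus strand of chromosome 17 (50418719–50432924). In JB1, its promoter held a KAP1 peak of 450 bp (50432401–50432850). In BJ1, the peak measured 600 bp (50432401–50433000). The peaks ended at the same base, 523 bp downstream of the gene start, and the BJ1 peak reached 76 bp upstream of it. The JB1 peak lay within the BJ1 peak, so that all of its 450 bp were shared. Both covered the start codon at the end of the first exon and the beginning of the first intron, and the BJ1 peak covered the whole first exon. A KAP1 peak was found in the promoter of 3.27% of all autosomal genes in JB1, of 12.5% in BJ1 and of 2.94% in both lines. The *Dazl* peaks were not wide: 30.6% of the JB1 KAP1 list and 58.9% of the BJ1 list were as narrow or narrower. No ZFP57 peak was present, and the nearest lay 40.4 kb from the gene start in JB1 and 763 kb in BJ1.

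The mm9 sequence around the *Dazl* start is shown because *Dazl* is the only gene of the 10 with peaks in the promoter. The capitals mark ZFP57 hexamers (TGCCGC and its variant GGCCGC), E-boxes (CACGTG) and E2F sites (TTCCCGC), in either orientation, and both sequences are read in the direction of the gene. The promoter sequence runs from 250 bp before to 50 bp after the start (chr17:50432875-50433174, minus strand). It lies under the BJ1 peak only from 76 bp upstream of the start onwards, and outside the JB1 peak, which begins 74 bp downstream. The second sequence is the 300 bp of the shared KAP1 region that lie farthest into the gene (chr17:50432401-50432700, minus strand).
Dazl promoter: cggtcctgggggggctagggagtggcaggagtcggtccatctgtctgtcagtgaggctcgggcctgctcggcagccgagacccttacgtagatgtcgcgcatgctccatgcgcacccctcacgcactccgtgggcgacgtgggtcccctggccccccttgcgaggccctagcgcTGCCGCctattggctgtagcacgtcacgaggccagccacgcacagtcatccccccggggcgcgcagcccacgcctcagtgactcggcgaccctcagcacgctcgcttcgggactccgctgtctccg
Dazl shared KAP1 region: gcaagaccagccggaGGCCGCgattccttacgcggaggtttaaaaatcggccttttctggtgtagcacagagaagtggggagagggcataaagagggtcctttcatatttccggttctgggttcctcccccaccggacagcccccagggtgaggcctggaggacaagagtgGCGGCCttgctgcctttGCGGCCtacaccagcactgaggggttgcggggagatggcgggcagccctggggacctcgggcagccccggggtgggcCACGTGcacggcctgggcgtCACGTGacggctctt

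The part shared by both lines held no TGCCGC, 4 GGCCGC and 2 CACGTG. The GGCCGC copies were 180, 239, 395 and 412 bp downstream of the start, of which the one at 180 bp lies before the stretch shown. The E-boxes lay 489 and 509 bp downstream. A TGCCGC was 76 bp upstream of the start, in the last bases of the BJ1 peak and outside the JB1 peak. In all autosomal peaks, GGCCGC was present in 15.6% of the JB1 and 12.7% of the BJ1 KAP1 peaks, and CACGTG in 9.35% and 9.30%. The JB1 peak had an observed to expected CpG ratio of 0.683 and the BJ1 peak of 0.742, compared with a median of 0.370 over the JB1 and 0.277 over the BJ1 list. Most peaks behind these medians and motif shares lie outside promoters. Only 665 of 36174 in JB1 and 2586 of 68471 in BJ1 touched one, and no comparison with promoter peaks alone was made. CpG density did not follow the peak edges. Within 1.5 kb of the start, the 100 bp with the most CpG, 17, were 600–699 bp downstream of the start, beyond the peaks of both lines, as were the next GGCCGC copies. The *Dazl* region is unique in mm9. None of the 50-base words of either peak, a word being as long as a read, occurred at another place.

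**Figure D2:**
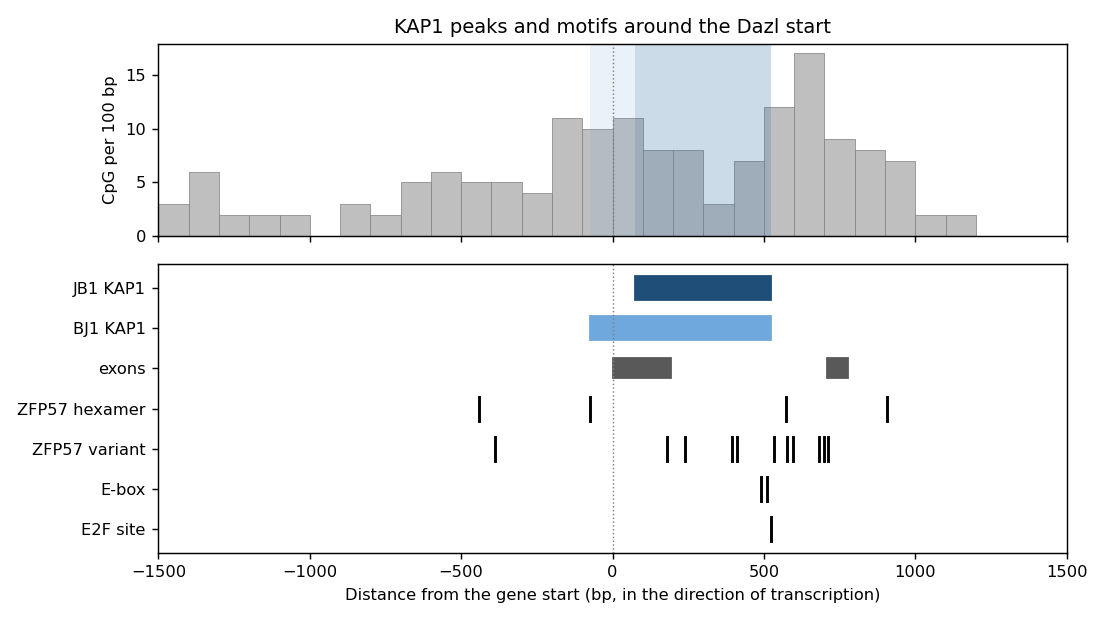
KAP1 peaks around the *Dazl* start, by distance from the start in bp, with the number of CpG per 100 bp above (shaded where a peak lies) and exons and motifs below. The peaks of both lines end 523 bp downstream of the start, whereas the CpG-rich stretch and the GGCCGC copies go on beyond them.

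The promoters of the other 9 genes held no peak of any list, neither of ZFP57 nor of KAP1. A ZFP57 peak was found in the promoter of 0.537% of all autosomal genes in JB1, of 0.154% in BJ1 and of 0.103% in both lines, and 0 of 10 is near these shares. The depth of the libraries is not known from the lists, and a promoter without a peak is one where binding was not detected.

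How far the nearest peak was from the gene start, measured to the near edge of the peak, differed widely among the genes. For KAP1 in BJ1, it was 0 kb at *Dazl*, 5.35 kb at *Stk31*, 11.4 kb at *Asz1*, 12.6 kb at *Tex101*, 22.6 kb at *Hormad1*, 25.1 kb at *Slc25a31*, 32.0 kb at *Sycp3*, 36.1 kb at *Sycp1*, 51.2 kb at *Mael* and 62.9 kb at *Ddx4*. The median over the 10 genes was 23.8 kb, and that over all autosomal genes was 12.3 kb, with 7 of the 10 beyond it. In JB1, the nearest KAP1 peak was 0.0740 kb away at *Dazl* and 133 kb at *Ddx4*, with a median of 36.6 kb beside 35.2 kb over all genes. *Dazl* and *Ddx4* were thus at the ends of the order in both lines. For ZFP57, the range was 12.6 kb at *Mael* to 712 kb at *Asz1* in JB1, and 14.9 kb at *Ddx4* to 2944 kb at *Slc25a31* in BJ1. The medians of 111 and 658 kb were close to those of all genes, 137 and 671 kb.

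**Figure D3:**
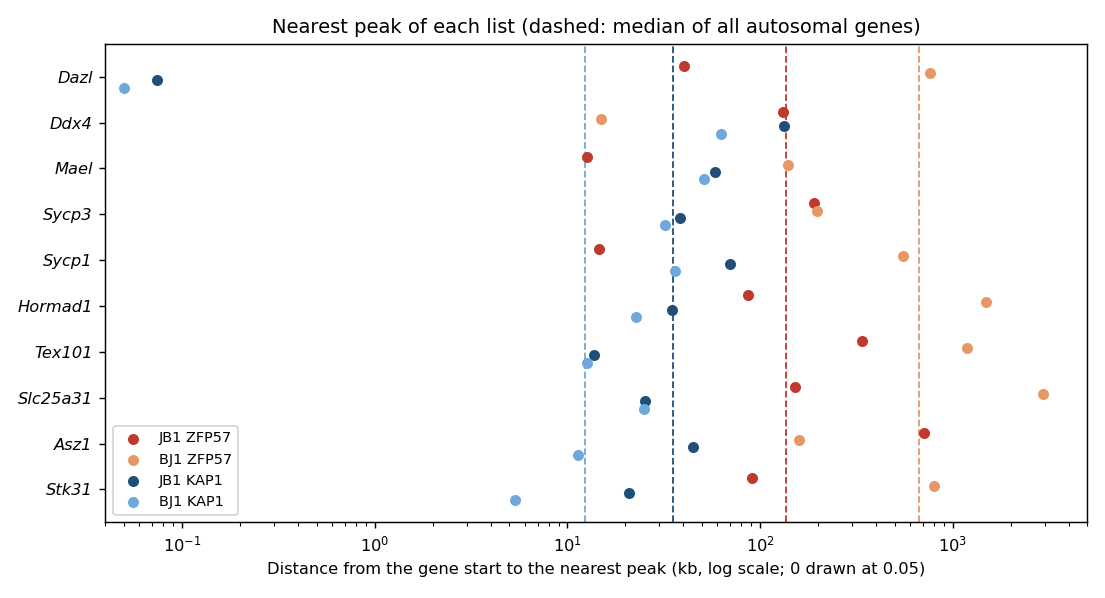
Distance in kb, on a log scale, from each gene start to the nearest peak of each list, with the median of all autosomal genes as a dashed line. Apart from the KAP1 peaks at *Dazl*, which overlap the start in BJ1 and begin 0.0740 kb from it in JB1, no peak lies within 5 kb of a gene start.

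Next to the start, all 10 genes had a higher CpG ratio than the median gene. In the 300 bp from 250 bp before to 50 bp after the start, the observed to expected CpG ratio was 0.625 at *Sycp3*, 0.700 at *Tex101*, 0.713 at *Hormad1*, 0.750 at *Stk31*, 0.779 at *Slc25a31*, 0.780 at *Mael*, 0.783 at *Asz1*, 0.830 at *Dazl*, 0.874 at *Sycp1* and 0.978 at *Ddx4*. All were above 0.544, the median of 21413 promoters, and *Dazl* was not at an end of the order. The number of CpG ranged from 13 at *Sycp3* to 38 at *Ddx4*. Over 500 bp on either side of the start, the ratio lay between 0.435 at *Tex101* and 0.753 at *Slc25a31*, with a median of 0.707. The median of all genes was then 0.559 and the upper quartile 0.773, so that 9 of the 10 were above the median, *Tex101* was below it, and all were below the upper quartile.

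**Figure D4:**
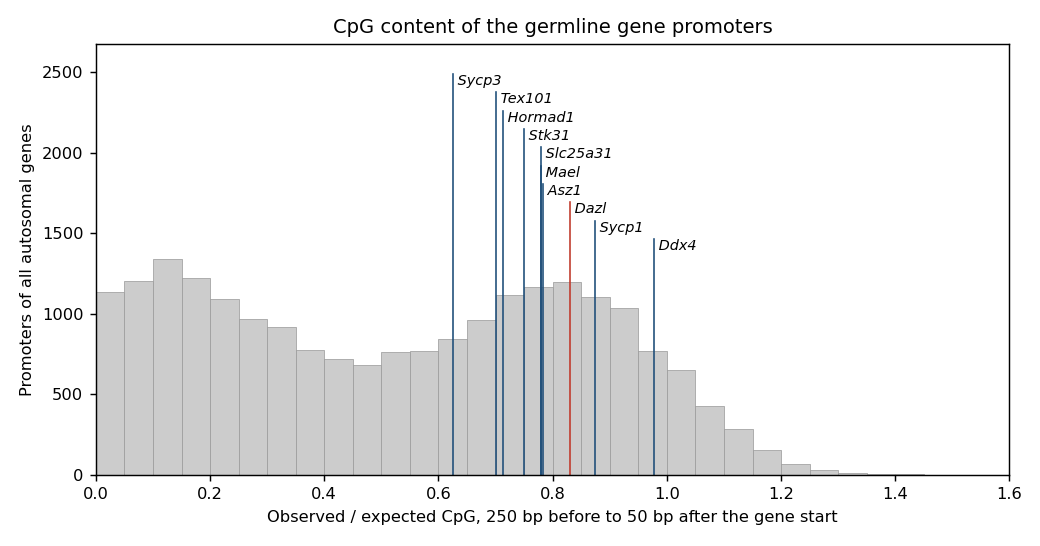
Observed to expected CpG ratio of the promoters (250 bp before to 50 bp after the start) of all autosomal genes as a histogram, with a line for each of the 10 genes (*Dazl* in red). The 10 genes lie between 0.625 and 0.978, above the median of 0.544.

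The hexamers bound by ZFP57 were present in some of these promoters without a ZFP57 peak. TGCCGC was found at 2 of the 10, *Dazl* and *Asz1*, and in 13.6% of all promoters of the same length. GGCCGC was found at 5 (*Ddx4*, *Sycp1*, *Tex101*, *Slc25a31* and *Stk31*) and in 24.2% of all. *Ddx4*, which encodes the germ cell RNA helicase Vasa, had 3 copies of GGCCGC, of which 2 in opposite orientation overlap each other upstream of the start. The E-box CACGTG was found at 7 of the 10 promoters and in 7.78% of all. It occurred at *Sycp3* and *Hormad1* as 2 copies each, and was absent from these 300 bp at *Dazl*, *Tex101* and *Asz1*. TTCCCGC was found at 4 (*Ddx4*, *Sycp3*, *Hormad1* and *Slc25a31*) and in 5.62% of all. Over 500 bp on either side of the start, TGCCGC was found at 2 of the 10 genes and in 35.2% of all, a lower share than that of all genes, where it had been higher in the 300 bp. There, GGCCGC was found at 6 and in 48.4% of all, CACGTG at 9 and in 17.1%, and TTCCCGC at 4 and in 15.3%. CACGTG reads the same on both strands and was counted once. The motifs other than the ZFP57 hexamers were chosen because they are known from germline promoters, and a match is a description of the B6 reference sequence only.

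The promoters of *Ddx4* (chr13:113442469-113442768, minus strand), *Sycp3* (chr10:87922064-87922363, plus strand) and *Hormad1* (chr3:95363349-95363648, plus strand) are shown as the ones that hold both CACGTG and TTCCCGC upstream of the start, with the same motifs in capitals, from 250 bp before to 50 bp after the start.
Ddx4 promoter: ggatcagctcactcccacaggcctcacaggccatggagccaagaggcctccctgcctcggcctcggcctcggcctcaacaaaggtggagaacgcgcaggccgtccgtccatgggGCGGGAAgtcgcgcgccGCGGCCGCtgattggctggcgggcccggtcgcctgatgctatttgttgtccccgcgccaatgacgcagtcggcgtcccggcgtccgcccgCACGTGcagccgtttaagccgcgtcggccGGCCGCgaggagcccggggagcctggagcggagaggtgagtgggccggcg
Sycp3 promoter: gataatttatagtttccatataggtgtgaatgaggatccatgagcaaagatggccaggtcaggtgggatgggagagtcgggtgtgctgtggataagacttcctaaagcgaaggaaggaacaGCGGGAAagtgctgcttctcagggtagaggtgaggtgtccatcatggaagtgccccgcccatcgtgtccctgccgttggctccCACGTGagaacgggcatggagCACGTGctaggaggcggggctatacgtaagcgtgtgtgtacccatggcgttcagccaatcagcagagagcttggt
Hormad1 promoter: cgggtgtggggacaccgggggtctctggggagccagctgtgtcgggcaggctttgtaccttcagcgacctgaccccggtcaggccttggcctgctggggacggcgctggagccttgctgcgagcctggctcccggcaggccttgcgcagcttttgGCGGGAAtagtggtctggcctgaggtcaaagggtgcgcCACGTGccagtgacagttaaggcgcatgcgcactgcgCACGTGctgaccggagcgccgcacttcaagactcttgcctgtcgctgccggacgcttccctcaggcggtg
None of these 3 had a peak of any list in the promoter, and the nearest KAP1 peak of either line was 22.6 kb away, at *Hormad1* in BJ1.

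Outside the promoters, KAP1 was found at the same place in both lines at 3 further genes, *Asz1*, *Stk31* and *Sycp1*. Distances of these peaks from the start are measured to the peak centre. *Asz1* and *Stk31* belong, like *Mael*, to the genes of germ granules and piRNA biology: *Asz1* encodes a protein of the mitochondrial surface needed for piRNAs, and *Stk31* a Tudor-domain protein. In *Asz1*, the peak lay in an intron, 45.5 kb from the start in JB1 (750 bp, chromosome 6, 18013201–18013950) and 45.6 kb in BJ1 (900 bp, 18013051–18013950). In *Stk31*, a peak of 750 bp in JB1 (chromosome 6, 49366501–49367250) lay within a peak of 1650 bp in BJ1 (49366051–49367700), over an intron and part of a coding exon, 21.3 kb from the start. This was the widest of the 20 peaks, and 93.9% of the BJ1 KAP1 list were as narrow or narrower. *Sycp1* encodes the transverse filament of the synaptonemal complex and is the longest of the genes, at 118 kb. A peak of 600 bp in JB1 (chromosome 3, 102669901–102670500) lay within a peak of 1050 bp in BJ1 (102669751–102670800), in an intron 69.8 kb from the start. None of these shared peaks overlapped a ZFP57 peak, as was so for most KAP1 peaks: over all autosomal gene windows, 12.8% of the JB1 and 1.14% of the BJ1 KAP1 peaks shared a base with ZFP57 in their own line.

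With *Dazl* counted in, BJ1 had a peak at 4 of the 5 JB1 KAP1 peaks, and JB1 had one at 4 of the 12 BJ1 peaks. Over all autosomal gene windows, these shares were 86.6% of 12708 peaks and 36.6% of 29674 peaks. The exception in JB1 was a peak of 450 bp in an intron of *Sycp1* (102659851–102660300), whose centre was 0.975 kb from the nearest BJ1 peak. The 8 peaks found in BJ1 only were 4 in introns of *Sycp1* (450 to 600 bp), 2 at *Stk31* (300 bp upstream of the gene and 750 bp in an intron), 1 in an intron of *Hormad1* (300 bp), which encodes a protein of the meiotic chromosome axis, and 1 of 450 bp located 8.53 kb downstream of *Tex101*, the gene of a surface protein of germ cells. The share of the windows covered by KAP1 peaks was 0.486% in JB1 and 1.31% in BJ1, compared with 0.883% and 1.84% for the windows of all autosomal genes.

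The shared KAP1 peaks inside genes differed from the *Dazl* peaks in their sequence. Of the 50-base words of the peaks in *Sycp1*, 53.4% in JB1 and 54.3% in BJ1 occurred at more than 1 place in mm9. In *Asz1*, the shares were 72.3% and 63.5%, and in *Stk31* they were 32.1% and 17.6%. Single words occurred at up to 3394 places (*Sycp1* in BJ1), 1125 places (*Asz1* in BJ1) and 100 places (*Stk31* in both lines). At *Dazl*, all words of both peaks occurred once. In a sample of the autosomal KAP1 peaks (every 50th), 15.1% of 724 JB1 peaks and 29.7% of 1370 BJ1 peaks had no repeated word, and the median share of repeated words was 54.5% and 17.0%. How reads that match several places were treated is not given in the sources used here, so the part of such reads in these peaks was not tested. The 300 bp in the middle of each shared region, which are intronic in all 3 genes, are shown on the plus strand, with capitals for bases that lie in a 50-base word found at more than 1 place (chr3:102670051-102670350 at *Sycp1*, chr6:18013426-18013725 at *Asz1* and chr6:49366726-49367025 at *Stk31*).
Sycp1 intron: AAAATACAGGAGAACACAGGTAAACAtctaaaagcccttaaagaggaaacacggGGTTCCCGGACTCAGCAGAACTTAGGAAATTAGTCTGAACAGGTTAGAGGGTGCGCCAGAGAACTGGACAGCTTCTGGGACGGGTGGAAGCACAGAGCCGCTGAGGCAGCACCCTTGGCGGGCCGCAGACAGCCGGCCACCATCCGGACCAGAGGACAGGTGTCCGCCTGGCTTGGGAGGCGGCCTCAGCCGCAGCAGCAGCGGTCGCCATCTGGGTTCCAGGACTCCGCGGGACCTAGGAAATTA
Asz1 intron: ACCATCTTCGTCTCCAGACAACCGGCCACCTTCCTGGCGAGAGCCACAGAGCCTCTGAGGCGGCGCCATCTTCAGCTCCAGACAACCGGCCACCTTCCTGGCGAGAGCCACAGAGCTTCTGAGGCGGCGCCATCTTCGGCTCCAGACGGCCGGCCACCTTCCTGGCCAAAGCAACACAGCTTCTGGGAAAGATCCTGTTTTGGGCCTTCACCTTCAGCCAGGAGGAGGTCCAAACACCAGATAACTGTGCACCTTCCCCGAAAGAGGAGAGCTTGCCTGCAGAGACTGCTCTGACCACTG
Stk31 intron: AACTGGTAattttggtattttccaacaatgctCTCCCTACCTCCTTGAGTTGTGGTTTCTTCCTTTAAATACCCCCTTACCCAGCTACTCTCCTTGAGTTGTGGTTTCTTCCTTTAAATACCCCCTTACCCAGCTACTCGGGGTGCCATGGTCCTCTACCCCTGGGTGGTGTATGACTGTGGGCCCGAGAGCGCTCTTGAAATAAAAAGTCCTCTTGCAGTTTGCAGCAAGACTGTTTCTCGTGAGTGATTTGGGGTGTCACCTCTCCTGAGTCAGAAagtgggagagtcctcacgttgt
In these stretches, 272, 300 and 254 of the 300 bases were in repeated words, respectively. The peaks in *Sycp1* held 2 GGCCGC in JB1 and 3 in BJ1, those in *Asz1* held 1 TGCCGC in each line, and the peaks in *Stk31* held no motif in JB1 and 1 CACGTG in BJ1.

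The 3 ZFP57 peaks were all inside genes, each in a single line and away from KAP1. Their distances from the start are likewise to the centre, and those in the plot of nearest peaks are to the edge. *Ddx4* had a peak of 300 bp in BJ1 (chromosome 13, 113427301–113427600) in an intron, 15.1 kb from the start. *Mael*, which acts in the piRNA pathway, had a peak of 450 bp in JB1 (chromosome 1, 168155851–168156300) that touched a coding exon, 12.8 kb from the start. *Sycp1* had a peak of 300 bp in JB1 (chromosome 3, 102725251–102725550) in an intron, 14.6 kb from the start. None of them was found in the other line, and the nearest ZFP57 peak of the other line was 118, 127 and 568 kb away. Of the ZFP57 peaks in the windows of all autosomal genes, 8.31% of those of JB1 were found in BJ1 and 46.1% of those of BJ1 in JB1. None of the 3 shared a base with KAP1 in its own line either, whereas 54.6% of such ZFP57 peaks in JB1 and 56.5% in BJ1 did. The nearest KAP1 peak of the same line was 78.0 kb away at *Ddx4*, 45.8 kb at *Mael* and 54.9 kb at *Sycp1*. The peaks at *Ddx4* and *Sycp1* had the least width in the lists, 300 bp, which 42.6% of the BJ1 and 31.7% of the JB1 ZFP57 list had, and the peak at *Mael* had the median width of the JB1 list.

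None of the 3 peaks held a TGCCGC or a GGCCGC. Of all autosomal ZFP57 peaks, TGCCGC was present in 48.5% of those of JB1 and 43.9% of those of BJ1, and GGCCGC in 8.63% and 13.4%. Most peaks of either list thus lack each hexamer taken alone. The share that lacks both was not counted, and nothing particular to these 3 peaks can be read from the absence of both. They held 2 CpG at *Ddx4*, 4 at *Mael* and 1 at *Sycp1*. All their 50-base words occurred once in mm9, which was so for 14.7% of the sampled JB1 and 38.1% of the sampled BJ1 ZFP57 peaks. The peaks of 300 bp are shown whole, on the plus strand (chr13:113427301-113427600 at *Ddx4* and chr3:102725251-102725550 at *Sycp1*), to be read beside the *Ddx4* promoter above, which has hexamers and no peak.
Ddx4 intron: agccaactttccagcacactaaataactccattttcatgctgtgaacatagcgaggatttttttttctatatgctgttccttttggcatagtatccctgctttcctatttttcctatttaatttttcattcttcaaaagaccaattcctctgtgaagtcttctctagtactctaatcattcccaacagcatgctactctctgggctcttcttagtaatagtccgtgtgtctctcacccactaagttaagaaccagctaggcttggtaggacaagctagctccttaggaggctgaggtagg
Sycp1 intron under ZFP57: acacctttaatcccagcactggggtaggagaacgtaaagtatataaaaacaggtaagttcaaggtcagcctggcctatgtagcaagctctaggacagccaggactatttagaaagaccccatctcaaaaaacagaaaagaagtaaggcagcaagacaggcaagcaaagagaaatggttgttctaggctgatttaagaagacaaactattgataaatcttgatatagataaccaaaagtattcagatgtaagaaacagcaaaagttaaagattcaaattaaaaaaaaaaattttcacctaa

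Other genes of the germ line were described in the same way, with a list of 52 symbols, of which 51 were found in the annotation. The promoter held a KAP1 peak at 2 of the 51 in JB1 and at 7 in BJ1, that is 3.92% and 13.7%, beside the 3.27% and 12.5% of all genes. The 7 were *Dpep3*, *Fkbp6*, *Dmc1*, *Tdrd12*, *Zcwpw1*, *Tuba3a* and *Tuba3b*. Only *Dpep3* and *Fkbp6* had a KAP1 peak in both lines, and they also had ZFP57 peaks in both lines. ZFP57 in the promoter in both lines was thus found at 3.92% of the 51 genes, at 0.103% of all autosomal genes and at 0 of the 10. The 3.92% stands for these 2 genes alone. The list of symbols was chosen with earlier results of these data known, so that the share cannot be read as an enrichment at germline genes. *Fkbp6*, which encodes a co-chaperone of meiosis and piRNA biology, had a ZFP57 peak over its start, 1050 bp wide in JB1 and 900 bp wide in BJ1 (chromosome 5, from 135825451 in both lines), with 2 TGCCGC and 2 GGCCGC each, under KAP1 peaks of 1350 and 1050 bp. At *Dpep3*, a testis dipeptidase gene, ZFP57 peaks of 600 bp in JB1 and 450 bp in BJ1, with 1 TGCCGC each, began 519 bp downstream of the start, and a second BJ1 peak of 450 bp with 1 GGCCGC covered the start. CACGTG was present in 23.5% and TTCCCGC in 11.8% of the 51 promoters, shares between those of the 10 genes and those of all genes. TGCCGC and GGCCGC were each present in 17.6%. For TGCCGC this was also between the 2, whereas for GGCCGC it was below the 24.2% of all genes.

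The pluripotency genes, which are active in ESCs, and the numbered *Zfp* genes were taken for comparison. Of 14 pluripotency symbols, 13 were found in the annotation and *Tfcp2l1* was not. None of the 13 genes had a KAP1 peak in the promoter in JB1, and 1 had one in BJ1 (*Pou5f1*, 750 bp). The *Zfp* genes were 337 entries of the annotation under 333 symbols, so that some symbols were counted more than once. Of the 337, 14 had one in JB1 and 59 in BJ1, or 4.15% and 17.5%, and 13 had one in both lines. The 13 were *Zfp738*, *Zfp125*, *Zfp60*, *Zfp771*, *Zfp36*, *Zfp597*, *Zfp329*, *Zfp790*, *Zfp953*, *Zfp161*, *Zfp276*, *Zfp521* and *Zfp708*, with 450 to 1050 bp in JB1 and 600 to 1200 bp in BJ1. Within the window, the *Zfp* genes had KAP1 at 47.2% in JB1 and 74.8% in BJ1, and the pluripotency genes at 38.5% and 84.6%. With 1 library per list, these counts were not tested against each other.

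**Figure D5:**
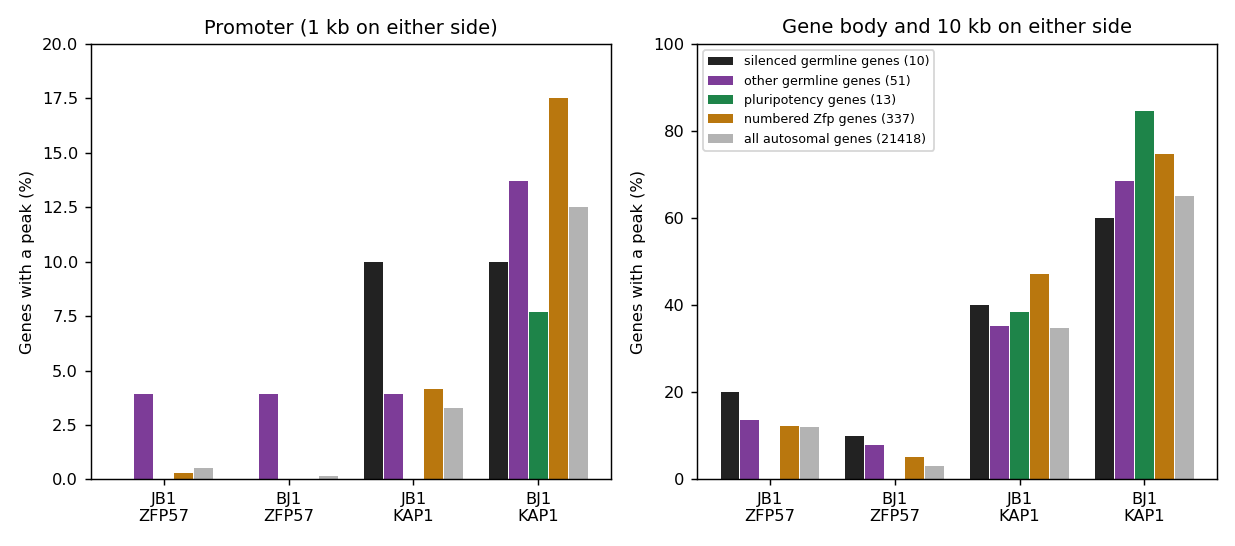
Percent of genes with a peak of each list in the promoter (left) and in the window (right), for the 10 silenced germline genes and the 4 sets compared, with the number of genes of each set in the key. The 10.0% of the germline genes in the KAP1 promoter bars stand for a single gene, *Dazl*, and there are no ZFP57 promoter bars for them.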

How the data were processed

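The files hold the ZFP57 and KAP1 peaks of JB1 and BJ1 ESCs as deposited by the authors, 1 list per library, with chromosome, start and end in mm9 and no other column. Per the labels and the methods of the study, reads of 50 bp were processed with CASAVA 1.8.2 and Trim Galore and aligned to NCBI37/mm9 with Bowtie 0.12.7 (up to 2 mismatches), and peaks were called with MACS at a *P*-value under 1e-05. The B6 sequence was the reference, and the lists do not split reads by allele. All starts and ends lay on a grid of 150 bp, counted from 1. Depth is unknown.

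Peaks sharing at least 1 bp with a gene window (body and 10 kb on either side) or promoter (1 kb on either side of the start) of GENCODE M1 were counted, beside the same counts over all autosomal protein-coding genes. Motifs were searched as exact matches on both strands of mm9. CpG ratios are observed over expected. The counting of 50-base words was added after the peaks had been seen, with every 10th ZFP57 and every 50th KAP1 peak as the comparison. With 1 library per line and antibody, no difference between the lines could be tested, and no other test was run. The 10 genes and the lists were chosen with earlier results of these data known. All 10 genes are named. Genes of the other lists are named if a promoter held KAP1 in both lines or ZFP57 in any (up to 12 per list by the wider KAP1 peak, and *Zfp708*, which ties with the last). *Dmc1*, *Tdrd12*, *Zcwpw1*, *Tuba3a*, *Tuba3b* and *Pou5f1* were named after their values were seen. Overlap and motif search were tested on simulated data. The scripts ran under Python 3.11.15 (matplotlib 3.10.9, pysam 0.24.0, scipy 1.17.1, numpy 2.4.6).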

Additional observations from a re-analysis of the deposited data

How the results depend on the processing

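Of 68 comparisons of the 24 counts and shares with an alternative, 58 stayed within 1.5 times the value given, or within its 95% binomial interval for the covered share. Most of the other 10 came from keeping only peaks at least as wide as the median of their list, 450 bp for ZFP57 and 600 bp for KAP1. Many peaks share the same width, so that more than 50% of each list stayed. This cut left 1 gene and 1 peak for ZFP57 in JB1, 0 genes, 0 peaks and 0% covered for ZFP57 in BJ1, 3 peaks for KAP1 in JB1 and 7 in BJ1. It also removed the *Dazl* promoter peak of JB1, at 450 bp, so that 0 genes had a KAP1 promoter peak there. A flank of 20 kb gave 8 KAP1 peaks in JB1, and gene bodies alone gave a KAP1 coverage of 1.74% in BJ1. Promoters of 500 bp or 2 kb on either side, every transcript start in place of the outermost, an overlap of at least 150 bp, and an overlap of 50% of the narrower peak between lines left the counts they were applied to within that range. Motif counts over 500 bp on either side did so too for the 10 genes, but the shares of all promoters rose, for TGCCGC from 13.6% to 35.2%, so that 2 of 10 turned from above to below the share of all genes. Only 1 library was made with each antibody in each line, no paired analysis was made, and the results come from no test. Peak positions are known only in steps of 150 bp, and weak binding below the threshold of the peak caller would not be seen.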

Other observations

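Beyond the windows, between 10 and 20 kb from the genes, there were 9 further peaks. Downstream of *Stk31*, a site had ZFP57 in JB1 and KAP1 in both lines. The ZFP57 peak measured 600 bp (chromosome 6, 49436251–49436850) and lay 16.8 kb from the gene, and the KAP1 peak measured 750 bp in both lines (49436251–49437000). It held 1 TGCCGC, and all its 50-base words occurred once in mm9. It was the only place within 20 kb of any of the 10 genes where ZFP57 and KAP1 of the same line overlapped, and BJ1 had no ZFP57 peak there. A second KAP1 peak of both lines lay next to it (900 bp in JB1 and 600 bp in BJ1).

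Upstream of *Tex101*, at 13.7 kb, a KAP1 peak of 750 bp had the same edges in both lines (chromosome 7, 25470751–25471500). It held 1 TGCCGC, and 53.5% of its words were repeated in mm9. The others were found in BJ1 only, 11.4 kb upstream of *Asz1* (750 bp) and 18.3 kb downstream of *Sycp3* (450 bp), over the gene *Chpt1*.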
